A study of Mus musculus with 12 samples.

Results

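Genes of the brain endothelium and its barrier were followed across 12 mouse models and ages that were profiled to evaluate animal models of Alzheimer's disease. The 10 genes were chosen by name, and each was found through the accession of its array probes. They were Cldn5, Pecam1, Slc2a1, Mfsd2a, Abcb1a, Kdr, Flt1, Tek, Ly6c1, and Vwf, out of 19647 genes measured on the arrays. Kdr and Ly6c1 had a pair of probes each, and the other genes had 1, which gave 12 probes in all. Every one of these probes was flagged well above background by the scanner software on all 12 arrays, so no gene was lost to a filter on low values.

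Endothelial cells of the brain line the capillaries and seal the space between neighbouring cells with tight junctions, and they carry nutrients inward and drugs outward through dedicated transporters. Signals of the VEGF and angiopoietin families keep these cells alive and quiet, whereas Wnt ligands from neural cells maintain the barrier programme. Larger vessels add smooth muscle and fibroblast layers, and their endothelium stores more von Willebrand factor than that of capillaries.

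Each array carried RNA pooled from 3 animals, and each model had 1 array. Prefrontal cortex came from C57BL/6 mice aged 1.5, 4, 17, and 22 months. Hippocampus came from C57BL/6 mice with an NCSTN transgene (mutated human gene, 10 months old), from a MAPT overexpression line (wild-type human gene, 12 months old), and from 5xFAD mice (mutated human transgenes, 6 months old). The 5xFAD transgenes run from the neuronal Thy1 promoter, and for NCSTN and MAPT the promoter was not given in the sources used here. The labels give the strain of these 3 models as C57BL/6, and the methods name C57BL/6N as the background of the NCSTN and 5xFAD mice. Hippocampus also came from ICR mice that were 7 weeks old when they received the agents, and tissue was taken 14 days after an injection into the cerebral ventricles or 30 min after an intraperitoneal one. The ventricular agents were Aβ at 5 μM and 10 μM and streptozotocin at 2.5 mg/kg and 3 mg/kg, and the intraperitoneal agent was scopolamine at 1 mg/kg. The arrays form 3 sets of 1 strain and region each (cortex, transgenic hippocampus, and ICR hippocampus), and an array was set against the average of the remaining arrays in its set, since untreated control arrays were not analysed here. Values are log2 signals after quantile normalization, and a log2 ratio of 1 is a 2-fold difference. The ratios of a gene within a set sum to 0, so a gene that is high on 1 array is lower on the others by construction. No test was run, because no condition had a second array. Model and age cannot be told apart in the transgenic set, and dose cannot be told apart from array in the ICR set. For scopolamine, the agent, its route, and the interval to tissue cannot be told apart. In bulk tissue, fewer endothelial cells and less RNA per cell cannot be told apart either.

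Of the 43020 spots on each array, 110 to 234 were left out as outliers, no spot was saturated, and 63.5% to 75.8% of probes were well above background. One Kdr probe was printed many times on each array, and its 9 or 10 usable spots had an SD of 0.044 to 0.083 on the log2 scale. The scanner software gave an error of 10% to 11.7% of the signal for the 12 probes. These errors describe an array and not the difference between animals. The methods call the mice of all 12 models male. On the 3 transgenic arrays, however, Xist was well above background, with a mean log2 signal of 9.41 and at least 35.2-fold over the other 9 arrays. Ddx3y was at least 175-fold lower and Eif2s3y at least 103-fold lower there, and neither was well above background. The 3 transgenic arrays share this pattern, so comparisons within that set do not cross it, whereas comparisons with the other sets do. Defining markers of neurons (8 of 8) and of astrocytes (8 of 8) were well above background on all 12 arrays. Markers of choroid plexus, a tissue next to the hippocampus, differed widely: their median ratio was -4.57 and -3.57 on the streptozotocin arrays, 2.54 to 2.87 on the other ICR arrays, and 3.36 in 17-month cortex.

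Promoter sequence from RefSeq (GRCm38.p6) was found for 8 of the 10 genes. For 5 of these, the window overlapped the annotated gene, and it is not printed. The 250 bases before the start of Cldn5, Slc2a1, and Abcb1a lay outside the genes and are shown for that reason alone. Capitals mark GGAA or its complement TTCC, which is the core of sites bound by ETS factors, and the GC box GGGCGG or its complement CCGCCC. Both strands were searched, and overlapping matches were counted. Each window is written 5′ to 3′ on the strand of its gene, the plus strand in all 3 cases.
Cldn5 (chr16:18776597-18776846): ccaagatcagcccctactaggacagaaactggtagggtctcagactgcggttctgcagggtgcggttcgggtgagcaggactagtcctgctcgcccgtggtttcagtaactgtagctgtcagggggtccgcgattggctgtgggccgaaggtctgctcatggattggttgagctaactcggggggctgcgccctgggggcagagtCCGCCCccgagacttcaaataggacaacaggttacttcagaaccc
Slc2a1 (chr4:119108495-119108744): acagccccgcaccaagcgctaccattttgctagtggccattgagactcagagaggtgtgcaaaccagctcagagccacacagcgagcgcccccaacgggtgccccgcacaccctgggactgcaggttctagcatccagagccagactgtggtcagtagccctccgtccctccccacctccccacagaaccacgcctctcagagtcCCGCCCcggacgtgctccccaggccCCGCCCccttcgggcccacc
Abcb1a (chr5:8566841-8567090): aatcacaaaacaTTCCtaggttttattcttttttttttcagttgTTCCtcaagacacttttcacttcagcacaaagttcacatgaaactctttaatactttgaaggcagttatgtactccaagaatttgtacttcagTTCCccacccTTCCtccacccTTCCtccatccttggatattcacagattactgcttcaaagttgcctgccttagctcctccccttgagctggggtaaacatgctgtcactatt

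The windows of Cldn5 and Slc2a1 held no GGAA or TTCC, as did 6.55% of the 32851 promoter windows of the same length. The Abcb1a window held 5, all as TTCC, and 18.0% of windows held 5 or more. Cldn5 had 1 GC box and Slc2a1 had 2, Abcb1a had none, and 32.7% of all windows had 1 or more. These matches describe letters in the window and were not tied to binding.

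**Figure D1:**
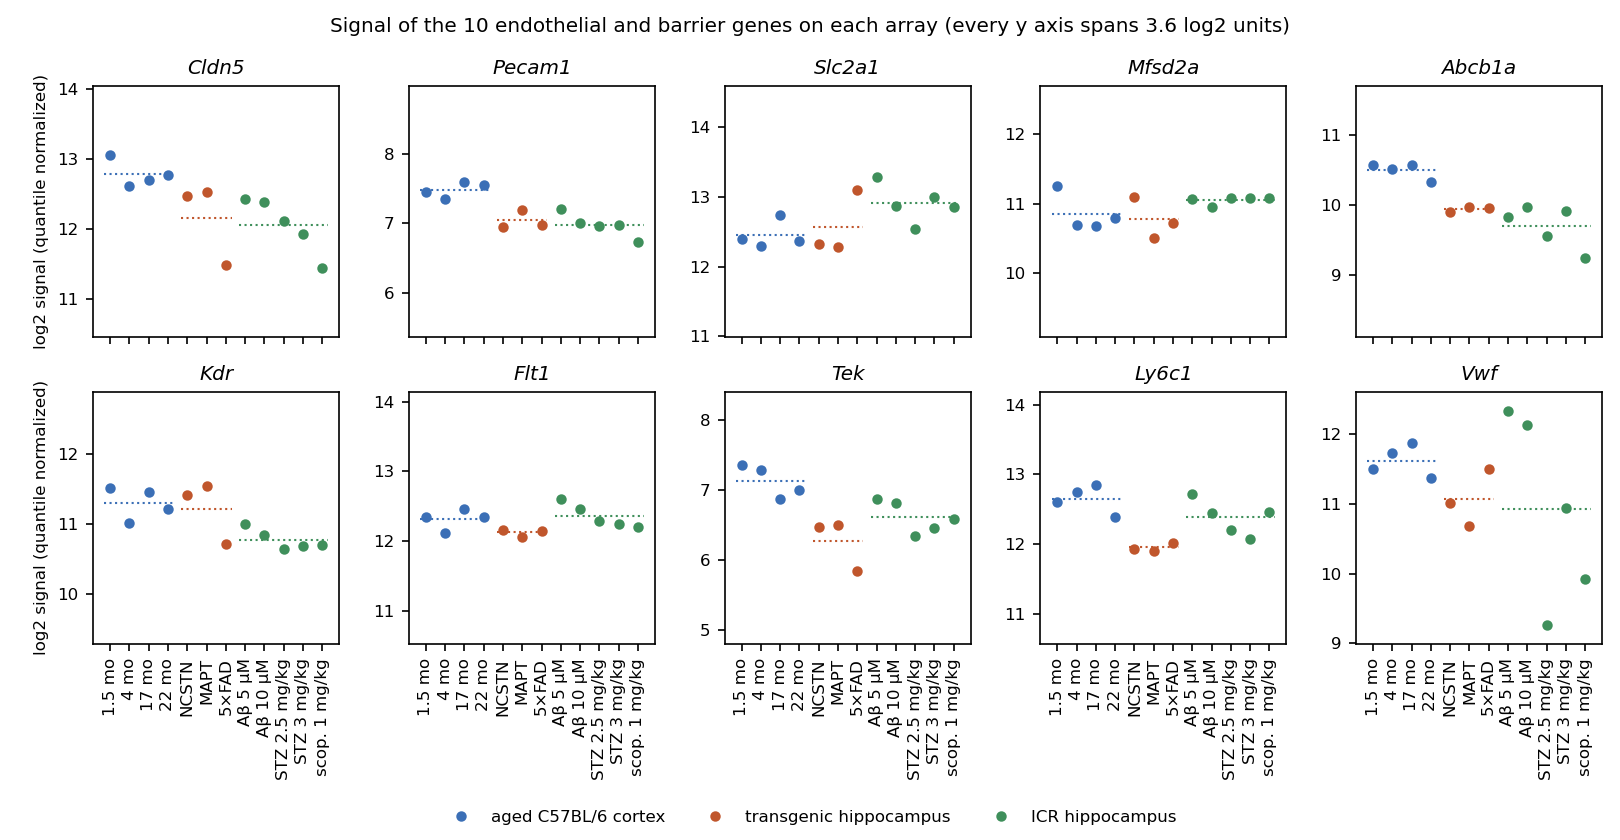
Log2 signal (vertical axis, quantile normalized, 3.6 log2 units in every panel) of the 10 genes on the 12 arrays (horizontal axis), coloured by set, with each set's mean as a dotted line and 1 array for each point. Vwf spread over 3.06 log2 units among the ICR arrays, whereas Flt1 stayed within 0.35, 0.10, and 0.41 in the cortex, transgenic, and ICR sets.

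Cldn5, the main claudin of brain endothelial tight junctions (chr16:18776847-18778262), was lowest on the 5xFAD and scopolamine arrays. Its log2 signal was 13.06, 12.62, 12.71, and 12.77 in cortex at 1.5, 4, 17, and 22 months. It was 12.47 in NCSTN, 12.53 in MAPT, and 11.48 in 5xFAD hippocampus. On the ICR arrays it was 12.44 and 12.39 after Aβ at 5 and 10 μM, 12.11 and 11.93 after streptozotocin at 2.5 and 3 mg/kg, and 11.43 after scopolamine. The NCSTN and MAPT arrays, and likewise the 2 Aβ arrays, differed from each other by less than the scanner error. The 5xFAD array was 2.03-fold lower than the mean of NCSTN and MAPT (log2 ratio -1.02), and the scopolamine array was 1.72-fold lower than the other ICR arrays (-0.78). Over the alternatives of processing, the ratio ranged from -1.05 to -0.93 on 5xFAD, so it fell on either side of 2-fold, and from -0.91 to -0.71 on scopolamine. Pecam1, an adhesion molecule of all endothelium, moved far less. Its log2 signal was 7.35 to 7.60 in cortex, 6.96 to 7.20 in the transgenic set, and 6.74 to 7.21 in the ICR set, where scopolamine was the lowest array as it was for Cldn5.

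The 3 transporters did not move together. Slc2a1 encodes GLUT1, the glucose carrier of the barrier, which astrocytes also express. Its log2 signal was 12.32 in NCSTN, 12.29 in MAPT, and 13.10 in 5xFAD, so 5xFAD was 1.74-fold higher than the other pair (0.80). This was opposite to Cldn5 on the same array. In the other sets Slc2a1 was highest in cortex at 17 months (12.74, against 12.29 to 12.40 on the other 3 arrays) and after Aβ at 5 μM (13.29, against 12.53 to 13.00). Mfsd2a carries lysophospholipids with docosahexaenoic acid and restrains transcytosis. It was highest in the youngest cortex, at 11.26 at 1.5 months against 10.70, 10.68, and 10.79 at 4, 17, and 22 months. The 5 ICR arrays spanned only 0.14 log2 units for Mfsd2a, the narrowest span of the 10 genes in that set. Abcb1a encodes P-glycoprotein, which pumps drugs back into blood. Its log2 signal was 10.57, 10.51, 10.57, and 10.33 in cortex and 9.90, 9.97, and 9.96 in the NCSTN, MAPT, and 5xFAD arrays. The ICR arrays gave 9.83 and 9.97 after Aβ, 9.56 and 9.91 after streptozotocin, and 9.24 after scopolamine. Scopolamine was thus the lowest ICR array for Abcb1a as well, 1.50-fold below the others (-0.58). Abcb1b, a close paralog of Abcb1a, had ratios of 0.18 on scopolamine and 0.53 on 5xFAD, and cross-hybridization between the pair was not tested.

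Among the receptors, Kdr and Tek were lower on 5xFAD and Flt1 was not. Kdr (VEGFR2) is the main signalling receptor for VEGF-A. Its log2 signal, averaged over the probe pair, was 11.41 in NCSTN, 11.54 in MAPT, and 10.71 in 5xFAD, which was 1.70-fold lower (-0.76). Tek (TIE2), the receptor of the angiopoietins, was 6.47, 6.50, and 5.84 on the same arrays, 1.56-fold lower on 5xFAD (-0.64). Flt1 (VEGFR1), which binds VEGF-A with little signalling, was 12.17, 12.06, and 12.15. In cortex, Tek was 7.37 and 7.29 at 1.5 and 4 months and 6.88 and 7.01 at 17 and 22 months, so the older pair lay below the younger pair. Kdr was 11.52, 11.01, 11.45, and 11.21 at these ages, so it had no order by age. Flt1 was 12.34, 12.12, 12.47, and 12.34, and the 1.5-month and 22-month arrays were equal to 2 decimals. On the ICR arrays all 3 receptors were highest after Aβ at 5 μM, at 12.60 for Flt1 and 6.87 for Tek, with ratios of 0.29 for Kdr, 0.30 for Flt1, and 0.32 for Tek. The lowest ICR arrays were streptozotocin at 2.5 mg/kg for Kdr (10.63) and Tek (6.34) and scopolamine for Flt1 (12.20). For Kdr, this order holds for the average of the probe pair and not for each probe (below).

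The probe pair of Kdr did not agree. Probe A_55_P2094469 had log2 signals of 12.66 to 13.32 in cortex and 12.42 to 13.22 in the transgenic set, but 11.86 to 12.05 on the ICR arrays, so ICR lay below both C57BL/6 sets without overlap. Probe A_51_P316553 ranged from 9.37 to 10.19 in cortex, up to 9.91 in the transgenic set (lowest on 5xFAD), and from 9.22 to 10.14 on the ICR arrays, which overlapped. Strain, age, and model differ between these sets. Region also differs between cortex and ICR, and the pattern of Xist, Ddx3y, and Eif2s3y between the transgenic set and ICR. These cannot be told apart. Within the ICR set, Aβ at 5 μM had a ratio of 0.70 with A_51_P316553 and -0.12 with A_55_P2094469. Streptozotocin at 2.5 mg/kg had -0.45 and 0.12. With A_55_P2094469, streptozotocin at 2.5 mg/kg was thus the highest ICR array (12.05) and Aβ at 5 μM the lowest (11.86). On 5xFAD both probes were lower, with ratios of -0.88 and -0.65. The probes of Ly6c1 moved alike, with ratios of 0.39 and 0.44 after Aβ at 5 μM.

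**Figure D2:**
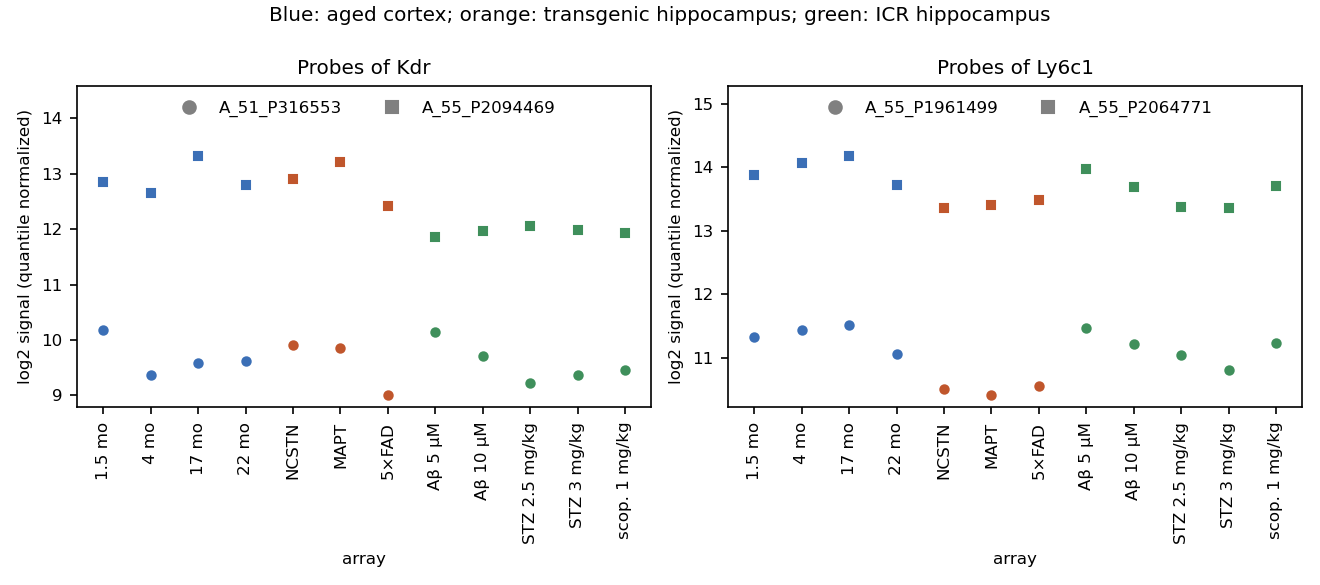
Log2 signal (vertical axis) of the probe pairs of Kdr and Ly6c1 on the 12 arrays (horizontal axis), with 1 marker shape for each probe and colours for the sets. For Kdr, the brighter probe lay at 11.86 to 12.05 on the ICR arrays, below its values on all C57BL/6 arrays, whereas the dimmer probe overlapped between the sets; the Ly6c1 probes ran in parallel.

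Ly6c1, a surface protein abundant on mouse brain endothelium, was lower in the transgenic set than in cortex, at 11.91 to 12.02 against 12.38 to 12.85. Region, age, model, and the pattern of Xist, Ddx3y, and Eif2s3y differ between these sets and cannot be told apart. On the ICR arrays it lay between 12.08 and 12.71, with Aβ at 5 μM highest and streptozotocin at 3 mg/kg lowest. Ly6c2 is a near-identical paralog expressed by monocytes, so the source of this signal is uncertain.

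Vwf (chr6:125552948-125686679), which encodes the clotting protein that endothelium stores and releases, varied more than any of the other 9 genes, and it did so on the ICR arrays. Its log2 signal was 11.50, 11.73, 11.87, and 11.37 in cortex at 1.5, 4, 17, and 22 months. It was 11.01 in NCSTN, 10.69 in MAPT, and 11.50 in 5xFAD. On the ICR arrays it was 12.33 and 12.14 after Aβ at 5 and 10 μM, 9.27 and 10.94 after streptozotocin at 2.5 and 3 mg/kg, and 9.93 after scopolamine. Both Aβ arrays lay above the other 3, and the 2 streptozotocin arrays lay far apart. Against the other ICR arrays, Vwf was 3.40-fold higher after Aβ at 5 μM (1.76) and 2.87-fold higher at 10 μM (1.52). It was 4.18-fold lower after streptozotocin at 2.5 mg/kg (-2.07) and 2.36-fold lower after scopolamine (-1.24). After streptozotocin at 3 mg/kg the ratio was 0.02. Over all alternatives the ratio kept its sign on these first 4 arrays, and on scopolamine it ranged from -1.87 to -0.85.

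**Figure D3:**
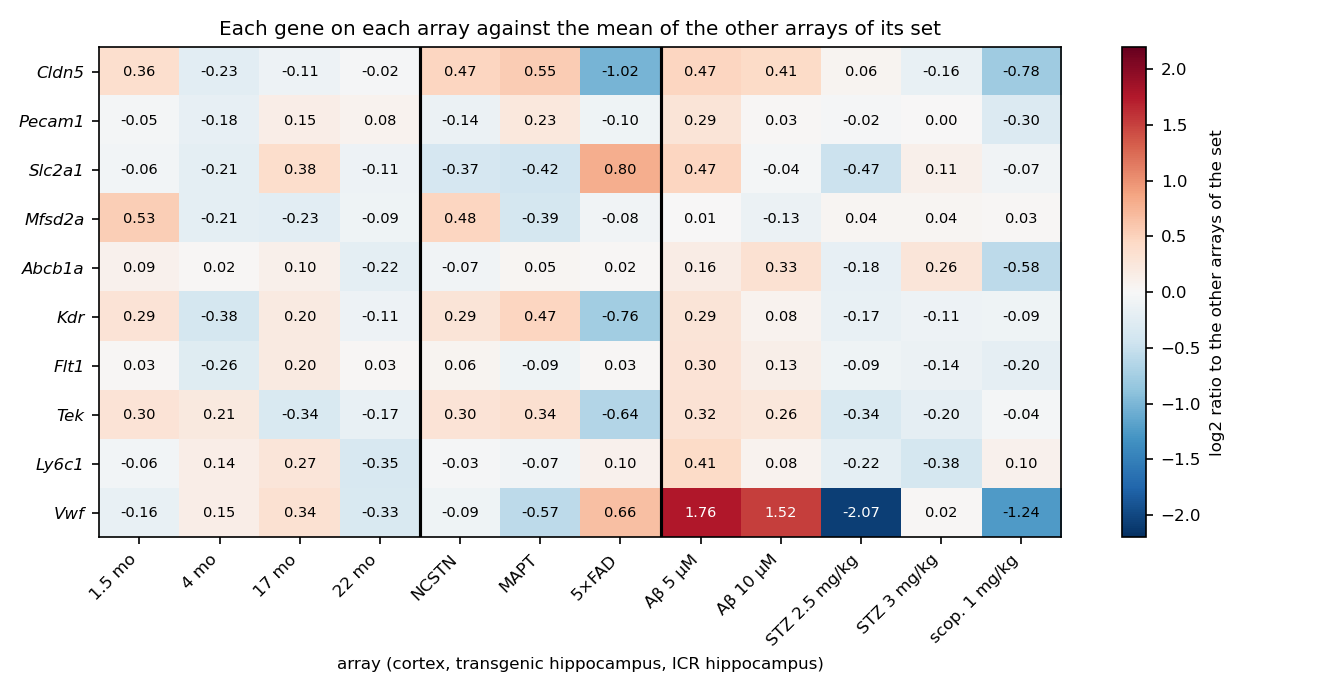
Log2 ratio of each gene (rows) on each array (columns) to the average of the rest of its set, as colour and number, with black lines between sets. Values of 1 or more in size appear for Cldn5 on 5xFAD (-1.02) and for Vwf on 4 ICR arrays.

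Counted at 2-fold, the endothelial genes stood out little from all genes. In cortex, 0 of the 10 genes reached 2-fold at 1.5, 4, 17, or 22 months, where 4.4%, 3.46%, 4.16%, and 3.54% of all genes did. No gene reached 2-fold on NCSTN or MAPT (4.76% and 4.79% of all genes), and 1, Cldn5, did on 5xFAD (10.7%). On the ICR arrays Vwf alone reached 2-fold after Aβ at 5 μM (5.4% of all genes), Aβ at 10 μM (5.72%), streptozotocin at 2.5 mg/kg (7.29%), and scopolamine (5.11%), and 0 genes did after streptozotocin at 3 mg/kg (4.98%). Among the 14016 genes well above background on all 12 arrays, a closer background for these bright probes, the shares were 8.22% on 5xFAD, 1.93% and 1.41% after Aβ at 5 and 10 μM, 2.66% and 0.985% after streptozotocin at 2.5 and 3 mg/kg, and 1.28% after scopolamine. The highest and lowest arrays of a set differed 2-fold or more for 0 genes in cortex (14.2% of all genes), for 1 in the transgenic set (16.7%), and for 2 in the ICR set (20.9%), Cldn5 and Vwf. Over the 14016 genes, these shares were 5.21% in cortex, 11.5% in the transgenic set, and 8.61% in the ICR set. The Cldn5 range in the ICR set lay at the threshold itself. The median range of the 10 genes was 0.45, 0.62, and 0.58 log2 units in the cortex, transgenic, and ICR sets, against 0.36, 0.41, and 0.33 over the 14016 genes.

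Old cortex (17 and 22 months) was then compared with young cortex (1.5 and 4 months). Pecam1 and Flt1 were higher on both old arrays than on both young ones, by 0.17 log2 units each, and Tek was lower by 0.38. For Pecam1 and Flt1, the gap between the nearest arrays (22 and 1.5 months) was below the scanner error, at 6.95% and 0.030% of the signal. These 3 of 10 genes compare with 35.2% of all genes that did not overlap (20.1% higher and 15.1% lower). No endothelial gene differed 2-fold, where only 1.93% of all genes were higher to that extent and 1.58% lower. The median over the 10 genes was -0.02, against 0.01 over all genes. Without the 22-month array the median was 0.18. Markers of pericytes, which wrap the same capillaries, were higher without overlap for 6 of 10 genes and lower for 1, with a median of 0.22. Choroid plexus markers had a median of 2.12 in this comparison, through the 17-month array, where their summed log2 signal was 15.64 against 8.84 to 9.30 on the other 3. The part of this in the endothelial values was not tested.

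On 5xFAD, 3 genes lay above both NCSTN and MAPT (Slc2a1, Vwf, and Ly6c1) and 3 lay below both (Cldn5, Kdr, and Tek). For Ly6c1 the gap to NCSTN, 6.04%, was below the scanner error. Over all genes, 83.4% fell outside the other pair (37.1% higher and 46.3% lower). The median of the 10 genes was -0.03, against -0.05 over all genes. Among 15 other pan-endothelial genes the median was -0.13, with 5 above and 6 below both arrays. The VEGF, angiopoietin, and Notch list had a median of -0.27, with 3 of 20 above and 11 below, and the Wnt barrier list had -0.30, with 6 of 18 above and 11 below. Vegfa, the ligand shared by Kdr and Flt1 and chosen here after its values were seen, was 9.55, 9.54, and 8.42 in NCSTN, MAPT, and 5xFAD, a ratio of -1.12. In the list of inflamed or leaky endothelium, 4 of 11 genes were at least 2-fold higher and 1 was lower, against 6.05% and 4.7% of all genes. Among them was Ch25h, which makes 25-hydroxycholesterol (9.74 against 5.44 and 5.11, ratio 4.46). The transporter Slco2b1 was also higher (1.64). Both Ch25h and Slco2b1 are expressed by microglia as well. Microglial markers had a median of 0.94 on this array, with 5 of 10 at least 2-fold higher and 1 lower, and a summed log2 signal of 16.20 against 14.96 and 14.93. Choroid plexus markers were also higher in the median (0.63, with 8 of 10 above both arrays and 2 below both). Their summed log2 signal was not, at 16.77 on 5xFAD against 16.99 and 17.09 on NCSTN and MAPT. Perivascular fibroblast markers (0.55), smooth muscle markers (0.46), and astrocyte markers (0.33, with 7 of 8 above both arrays) were higher in the median. The part of these cell types in the endothelial values was not tested.

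**Figure D4:**
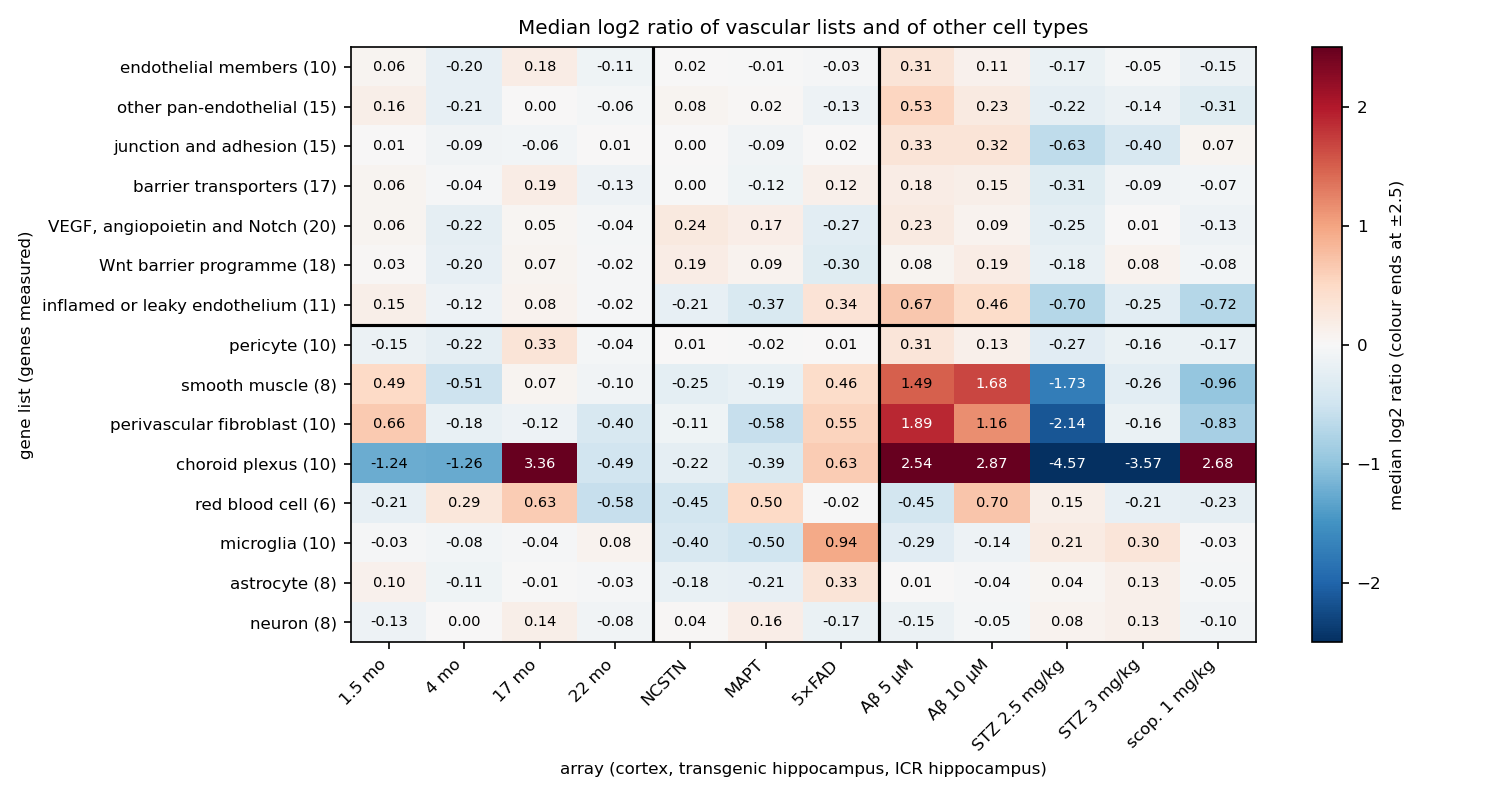
Median log2 ratio (colour and number) of each gene list (rows, genes measured in parentheses) on each array (columns); endothelial and barrier lists stand above the horizontal line and other cell types below it. Choroid plexus, smooth muscle, and perivascular fibroblast markers differed most among the ICR arrays, and microglial markers were highest on 5xFAD at 0.94.

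The Aβ and streptozotocin arrays were compared within the ICR set. In 7 of 10 genes, both Aβ arrays lay above both streptozotocin arrays, where 19.8% of all genes did so (47.2% did not overlap in either direction). The genes were Cldn5 (0.39), Pecam1 (0.13), Kdr (0.26), Flt1 (0.26), Tek (0.45), Ly6c1 (0.44), and Vwf (2.13, or 4.38-fold). Only Mfsd2a lay below without overlap, by 0.08, where 27.4% of all genes did so. For Pecam1 and Mfsd2a the gaps between the nearest arrays, 1.67% and 1.55%, were below the scanner error. For Kdr the direction came from the dimmer probe: with the brighter probe alone, both Aβ arrays lay below both streptozotocin arrays (-0.11), and 6 genes were higher and 2 lower. Vwf was the single gene past 2-fold (5.07% of all genes were higher to that extent and 1.92% lower). The median of the 10 genes was 0.29, against -0.03 over all genes. In the deposited matrix, where the median of all genes was -0.19, 4 genes were higher without overlap and 1 was lower, against 8.22% and 52.8% of all genes. Of 15 other pan-endothelial genes, 12 were higher and 1 lower without overlap, with a median of 0.39. Cdh5, the cadherin of endothelial junctions, was 8.91 and 8.34 after Aβ, 7.55 and 7.89 after streptozotocin, and 7.40 after scopolamine. Microglial markers were lower after Aβ without overlap for 10 of 10 genes, with a median of -0.35. Choroid plexus markers (10 of 10, median 5.41) and perivascular fibroblast markers (10 of 10, 2.21) were higher after Aβ without overlap. So were smooth muscle markers (8 of 8, 2.07) and 7 of 10 pericyte markers (0.36). The part of these cell types in the endothelial values was not tested. The scopolamine array was low for Cldn5, Abcb1a, and Vwf, with a median of -0.15 over the 10 genes and -0.31 over the other pan-endothelial genes.

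Among cells of the vessel wall, smooth muscle and perivascular fibroblast markers differed more than endothelial markers on the same arrays, and pericyte markers did not. Smooth muscle markers had median ratios of 1.49 and 1.68 after Aβ at 5 and 10 μM, -1.73 and -0.26 after streptozotocin at 2.5 and 3 mg/kg, and -0.96 after scopolamine. Their summed log2 signal was 15.22 and 15.11 after Aβ and 12.91, 13.68, and 13.28 on the other 3 arrays, and 7 or 8 of 8 markers were well above background. Perivascular fibroblast markers had medians of 1.89, 1.16, -2.14, -0.16, and -0.83 in the same order of arrays, and all 10 were well above background. The contractile gene Acta2 was 12.65, 12.66, 9.79, 10.95, and 9.90, and the collagen gene Col1a1 was 10.69, 10.48, 7.84, 9.20, and 8.22. Vwf ran through these 5 arrays with ratios of a size like those of the smooth muscle and fibroblast lists. The median of the 9 other endothelial genes stayed between -0.17 and 0.30. Pericyte markers stayed between -0.27 and 0.31. Choroid plexus markers had medians of 2.54, 2.87, -4.57, -3.57, and 2.68 in the same order of arrays. Their sign was that of Vwf on both Aβ arrays and after streptozotocin at 2.5 mg/kg, and the opposite after scopolamine. After streptozotocin at 3 mg/kg they were low, where the Vwf ratio was 0.02. The part of these cells in the Vwf values was not tested.

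**Figure D5:**
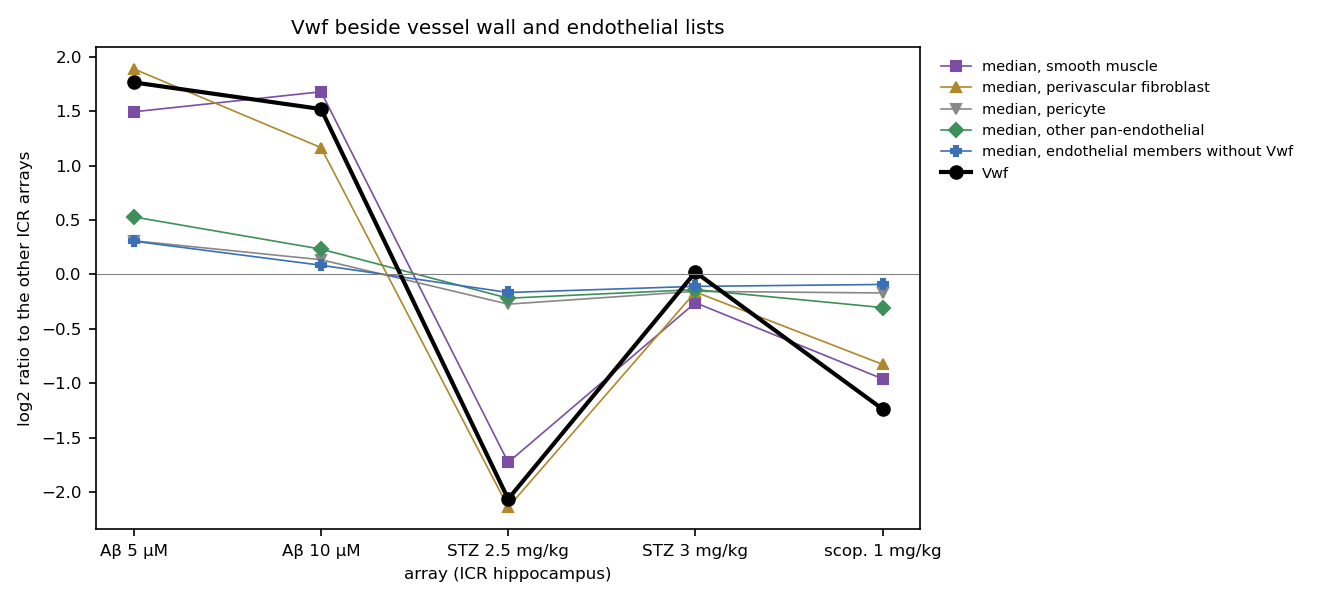
Log2 ratio to the other ICR arrays (vertical axis) of Vwf (black) and the median of 5 gene lists (colours) on the 5 ICR arrays (horizontal axis); lines only join the values of 1 series. Vwf lay near the smooth muscle and perivascular fibroblast medians on all 5 arrays, from 1.76 after Aβ at 5 μM to -2.07 after streptozotocin at 2.5 mg/kg, and the other endothelial medians stayed within 0.53 of 0.

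Other genes of the endothelial and barrier lists also differed widely among the ICR arrays. Esm1, a marker of VEGF-stimulated endothelium, was 8.45 and 7.60 after Aβ at 5 and 10 μM, 5.53 and 4.83 after streptozotocin at 2.5 and 3 mg/kg, and 7.49 after scopolamine. Angpt2, the ligand that counters TIE2 signalling, was 8.60, 8.31, 5.83, 6.94, and 7.04 in the same order. Lcn2, an acute-phase protein, had a ratio of 1.90 after Aβ at 5 μM. Among junction genes, Cldn3 was 7.68, 8.29, 5.25, 4.74, and 8.58, and Tjp3 was 9.11, 9.45, 6.99, 7.75, and 9.60. Cgnl1 was 5.08, 5.68, and 5.29 after Aβ at 5 and 10 μM and scopolamine, and it was not well above background on either streptozotocin array. Cldn1 was 5.12 after Aβ at 5 μM and 5.66 after scopolamine, and it was not well above background on the other 3 arrays, so no ratio is given for this pair. Cldn3 and Tjp3 were high after scopolamine and low after streptozotocin, as the choroid plexus markers were, and choroid plexus epithelium also expresses such junction genes. Their part in these values was not tested. The junction list as a whole had medians of 0.33, 0.32, -0.63, -0.40, and 0.07.

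In cortex, the same rule named Lcn2, Ch25h, and Tjp3 on the 17-month array (1.57, 1.37, and 1.45, where Tjp3 was not well above background at 1.5 months), Lcn2 at 1.5 and 22 months (-1.20 and -1.32), and Ch25h at 22 months (-1.06). On the transgenic arrays it named Clec14a, an endothelial lectin, on MAPT (2.75) and NCSTN (-1.51). Wnt7b was named on NCSTN (1.07), and Ch25h on NCSTN and MAPT (-1.98 and -2.48). Ch25h was 5.44 on NCSTN and 5.11 on MAPT, and both references hold the 9.74 of 5xFAD. Clec14a was 6.36 on MAPT against 3.52 and 3.70 on NCSTN and 5xFAD, so its NCSTN ratio has the high MAPT value in its reference. Outside MAPT its signal was low on every array, at 3.48 to 4.76, though flagged well above background. No other of the 15 pan-endothelial genes was 2-fold higher on MAPT. The barrier transporter list had medians of -0.31 to 0.19 over the 12 arrays. At 2-fold, 1 of its 17 genes differed on each of MAPT, 5xFAD, Aβ at 5 μM, and streptozotocin at 2.5 mg/kg. Of all genes, 4.79%, 10.7%, 5.4%, and 7.29% did so on these arrays. None of the 17 reached 2-fold on the other 8 arrays.

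The 10 genes were also described by how alike they ran over the 12 arrays, after each set was centred on its mean. Pearson's r of a gene with the mean of the other 9 was highest for Flt1 (0.77), Vwf (0.67), and Abcb1a (0.66), 0.45 to 0.59 for Cldn5, Pecam1, Kdr, Tek, and Ly6c1, 0.28 for Slc2a1, and -0.03 for Mfsd2a. Among genes well above background on all arrays, those most like the mean profile were Filip1l (0.98), Cdh5 (0.98), Fibin (0.97), Adgra2 (0.97), Gm4788 (0.97), Slc22a6 (0.96), Nupr1 (0.95), Thbd (0.95), Anxa1 (0.95), and Mgp (0.95). Because Vwf has the largest differences, it carries much of that profile. The mean of the other 9 genes also holds Vwf for every gene but Vwf itself, and those r values were not computed without it. Without Vwf the 10 nearest genes were Adgra2 (0.95), Cdh5 (0.94), Adcyap1 (0.94), Filip1l (0.94), Acta1 (0.93), Arhgap29 (0.92), Tmem64 (0.92), Epas1 (0.91), Eng (0.91), and Gm4788 (0.91). Cdh5, Eng, and Adgra2, a Wnt co-receptor of brain endothelium, were the genes of the endothelial and barrier lists among them. The 12 points share 3 sets and 1 normalization, and the genes were ranked from 14016, so these values describe likeness on these arrays.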

How the data were processed

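Gene expression was measured on 12 one-colour Agilent mouse arrays. The authors deposited the intensity of each spot as the scanner software gave it (foreground and local background medians, processed signal, and flags), not normalized between arrays, and for the same arrays a table of processed intensities, which served only as an alternative. The labels name Cy5, whereas the columns are those of the green channel. Probes at least 1.4-fold over local background were kept and quantile normalized, as the methods of the study state. Taking log2 of the processed signal, leaving out outlier spots, averaging spots of 1 probe, and asking for the 1.4-fold on all 12 arrays (36519 of 39429 probes) were choices made here. Accessions were matched without versions to the RefSeq gene table of GRCm38.p6, which named 69.8% of probes, and probes of 1 gene were averaged. The log2 ratio of an array was its log2 value minus the average of the rest of its set, and 2-fold ratios were counted. The scripts were tested on simulated data. Python 3.11.15, numpy 2.4.6, pandas 2.3.3, matplotlib 3.10.9, R 4.3.3, and limma 3.58.1 were used.

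The 10 genes and all lists were chosen with earlier results of these data known. Other genes were named if they belonged to an endothelial or barrier list, were at least 2-fold higher or lower on an array, and were well above background on it and on at least 1 other array of its set, with at most the 3 largest per array, and the 10 genes most like the mean profile were named. One gene named by this rule is not reported here, but its values remain in the counts and medians of its list. Vegfa, Acta2, Col1a1, and Abcb1b were picked with their values in view. Xist, Ddx3y, and Eif2s3y were read before filtering, and a fold over a group below background is a bound. The red blood cell list had medians of -0.58 to 0.70. Sele was not measured. The alternatives were scaling to the 75th percentile, quantile normalization within each set, normexp with an offset of 50 (on the foreground median), the deposited matrix, no filter, a 2-fold filter, the scanner flag as filter, the brightest probe of a gene, a median in place of the mean as reference, each array left out, and a 1.5-fold threshold. Leaving out Vwf was added after the data had been seen.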

Additional observations from a re-analysis of the deposited data

Results flagged for a closer look

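Mfsd2a after Aβ at 10 μM stood apart from the other 4 ICR arrays, with a log2 signal of 10.95. Its distance to the next array was 0.82 of the range of the set, above the critical value of 0.71, but that distance was only 0.11 log2 units, because Mfsd2a hardly varied among the ICR arrays. Such a distance was looked for in 20 pairs of gene and set, and chance gives about 1 in 20.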

How the results depend on the processing

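No paired analysis was possible because each model had 1 array. Of the 120 ratios of a gene on an array, 77 kept their sign under all alternatives, among them Vwf on the Aβ, streptozotocin 2.5 mg/kg, and scopolamine arrays, and Cldn5, Kdr, Tek, Slc2a1, and Vwf on 5xFAD. The count of genes at 2-fold on 5xFAD (1) was 0 with quantile normalization within each set, 0 in the deposited matrix, 5 at a threshold of 1.5-fold, and 0 to 1 when an array was left out (0 without MAPT). On MAPT it was 0 to 1 (1 without NCSTN). On scopolamine (1) it was 2 at 1.5-fold, 0 to 1 when an array was left out (0 without either Aβ array), and 0 without Vwf. Without Vwf it was also 0 on both Aβ arrays and after streptozotocin at 2.5 mg/kg. The share of all genes at 1.5-fold was not computed, so the counts of 5 and 2 at that threshold have no background beside them. Genes with a 2-fold range in the transgenic set (1) were 0 in the matrix and 0 to 1 when an array was left out (0 without MAPT or 5xFAD). In the ICR set (2) they were 1 after scaling to the 75th percentile, 1 with quantile normalization within the set, 1 after normexp, and 1 to 2 when an array was left out (1 without Aβ at 5 μM or scopolamine). The median of old minus young cortex ranged from -0.13 to 0.18 when an array was left out, and 0.18 came without the 22-month array. The medians of NCSTN, MAPT, and 5xFAD changed sign under 4 alternatives each, those after streptozotocin at 3 mg/kg under 3, and those of 1.5-month cortex, Aβ at 10 μM, and streptozotocin at 2.5 mg/kg under 1 each. The cause of these differences was not tested. One array per model and pooled RNA limit every value.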
